A study of Mus musculus with 4 samples.

Results

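Tight junctions seal the space between neighbouring epithelial or endothelial cells. This account follows 9 of their genes among the 28693 genes measured in single cells of the mouse mammary gland: Cldn1, Cldn3, Cldn4, Cldn5, Cldn7, Ocln, Tjp1, F11r and Marveld2. They were taken by symbol, and each symbol was listed once. Their transcripts, counted as unique molecular identifiers (UMIs), were summed per mouse over luminal oestrogen receptor-negative (ER-), hormone-sensing, basal and endothelial cells. In the mice with Cre they were also summed over luminal cells with and without the recombination reporter EYFP. Cells were sorted into these classes by marker genes, none of which is one of the 9. The question addressed was how these genes differ between mice with and without induced deletion of Lats1 and Lats2 in luminal cells.

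Droplet-based single-cell RNA-seq was performed on 4 libraries, each from 1 mouse. The 2 WT mice were adult nulliparous females with floxed Lats1 and Lats2 on both alleles and 1 copy of R26-lsl-EYFP, a fluorescent reporter that Cre switches on. They carried no Cre. The 2 LATS1/2 KO mice had the same floxed alleles and also Krt8-CreERT2, a tamoxifen-inducible Cre driven from the keratin 8 gene and so directed at luminal cells. LATS1/2 KO replicate 1 was heterozygous and replicate 2 homozygous for the reporter. All 4 mice, WT included, received 2 mg of tamoxifen on 5 consecutive days, and glands were collected 7 days after the last dose. Live cells were sorted with no other selection, so a library held cells that had recombined and cells that had not. Basal and endothelial cells were not the target of this Cre.

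Claudins are membrane proteins that line up into the strands of a tight junction and set which ions and molecules pass. Claudins 3, 4 and 7 are widespread in simple epithelia, claudin 1 is best known from the barrier of the skin, and claudin 5 is the claudin of vascular endothelium. Occludin (Ocln) and tricellulin (Marveld2) share a 4-pass MARVEL domain, and tricellulin sits where 3 cells meet. JAM-A (F11r) is an immunoglobulin-type adhesion molecule, and ZO-1 (Tjp1) is the scaffold that ties the strands to actin. In the mammary gland the strands lie between luminal cells, around the duct lumen, while basal cells are contractile and lie outside them. LATS1 and LATS2 are the kinases of the Hippo pathway that hold the co-activators YAP and TAZ out of the nucleus, where these work with TEAD factors.

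Of 20324 barcodes, 18200 passed at more than 500 genes and under 20% mitochondrial UMIs, between 3515 and 5272 a library, with median depths of 5962.5 to 10141 UMIs. The gates gave 3081 and 2227 luminal ER- cells in WT replicates 1 and 2 and 2074 and 2142 in LATS1/2 KO replicates 1 and 2. Hormone-sensing cells numbered 1166, 833, 489 and 182 in the same order, basal cells 166, 141, 254 and 327, and endothelial cells 43, 35, 225 and 240. Epithelial cells that no lineage took numbered 161, 142, 726 and 697, and they are in none of the sums. The gate was also less clear-cut in LATS1/2 KO: 2.01% and 2.20% of WT luminal ER- cells lay just past the margin, against 21.7% and 18.5% in LATS1/2 KO, for hormone-sensing cells 8.58% and 8.4% against 28.6% and 36.3%, and for basal cells 10.2% and 2.84% against 35.0% and 32.7%. As a check of the labels, Lats1 in luminal ER- cells stood at 25.7 and 25.6 UMIs per 1000000 UMIs of its sum (CPM) in WT and at 15.1 and 17.9 CPM in LATS1/2 KO. Lats2 stood at 15.4 and 16.9 CPM in WT and at 28.3 and 28.9 CPM in LATS1/2 KO. The reads are 3′ tags, and which exons are floxed is not given in the sources used here, so a Lats2 tag need not report the deletion. Libraries shared 43 barcodes.

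The 9 genes lie on 6 chromosomes (mouse build GRCm38, GENCODE vM21). A pair of claudin genes are neighbours: Cldn4 (chr5:134945119-134946934, minus strand) and Cldn3 (chr5:134986214-134987472, plus strand) are 39279 bases apart. Ocln (chr13:100496507-100552718) and Marveld2 (chr13:100595957-100616971), both on the minus strand, are separated by 43238 bases. Cldn1 (chr16:26356642-26371841, minus strand) and Cldn5 (chr16:18776847-18778262, plus strand) share a chromosome at a greater distance. Cldn7 is at chr11:69964779-69967885 and F11r at chr1:171437535-171464603, both on the plus strand, and Tjp1 at chr7:65296165-65527781 on the minus strand. An annotated antisense gene, Wbscr25, overlaps Cldn3. Records of unproven transcripts on the same strand overlap Tjp1.

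In WT mice the widespread epithelial claudins Cldn3, Cldn4 and Cldn7, occludin and tricellulin were higher in both luminal lineages than in basal or endothelial cells. Cldn1 was a luminal ER- gene, Cldn5 was endothelial, and Tjp1 and F11r were spread over all 4 lineages. Cldn3, a strand claudin, stood at 1027 and 1124 CPM in luminal ER- cells of WT replicates 1 and 2, at 658 and 728 CPM in hormone-sensing cells, at 57.1 and 48.1 CPM in basal cells and at 46.1 and 65.3 CPM in endothelial cells. Cldn7 stood at 471 and 604 CPM in luminal ER- cells, at 409 and 440 CPM in hormone-sensing cells, at 38.6 and 8.6 CPM in basal cells and at 92.3 and 32.6 CPM in endothelial cells. The basal and endothelial values of both genes overlapped each other, and both luminal lineages lay above them in each mouse. Cldn4 stood at 1326 and 1059 CPM in luminal ER- cells and at 1170 and 1085 CPM in hormone-sensing cells, so these lineages overlapped. In basal cells it stood at 158 and 36.0 CPM and in endothelial cells at 147 and 32.6 CPM.

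Transcripts of these luminal genes were also read in cells that should not make them. In immune cells of the WT libraries Cldn3 stood at 19.5 and 62.6 CPM, Cldn4 at 40.8 and 34.8 CPM and Cldn7 at 10.7 and 27.8 CPM. The summed luminal ER- markers, at 19653 and 23219 CPM in luminal ER- cells, stood at 1978 and 2231 CPM in basal cells and at 2559 and 2043 CPM in endothelial cells, with all 10 markers read. Where Cldn3, Cldn4 or Cldn7 was no higher than this outside the luminal lineages, it is not read as expression.

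Cldn1 was the member most unlike between the luminal lineages. It stood at 12.9 and 15.2 CPM in WT luminal ER- cells (361 and 360 UMIs) and at 0.28 and 0.47 CPM in hormone-sensing cells (4 and 7 UMIs), and no UMI was read in WT basal or endothelial cells. Ocln stood at 84.8 and 81.8 CPM in luminal ER- and at 40.9 and 38.5 CPM in hormone-sensing cells, and Marveld2 at 34.8 and 36.3 CPM against 22.6 and 24.3 CPM. In each of these 3 genes the 2 luminal lineages did not overlap. Basal cells held 4 and 1 UMIs of Ocln and 2 and 2 of Marveld2.

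Cldn5 was read in WT endothelial cells at 717 and 1161 CPM and in luminal ER- cells at 0.14 and 0.30 CPM, with no UMI in basal cells. Tjp1 stood at 189 and 209.9 CPM in endothelial cells, at 86.4 and 79.8 CPM in luminal ER-, at 75.5 and 73.0 CPM in hormone-sensing and at 73.8 and 42.9 CPM in basal cells. F11r stood at 205.5 and 289 CPM in endothelial, at 162 and 151.5 CPM in luminal ER-, at 149 and 132 CPM in hormone-sensing and at 102 and 124 CPM in basal cells. For both genes the endothelial sums were the highest, although they rest on only 43 and 35 cells. Their level in immune cells was low, at 3.6 and 7.0 CPM for Tjp1 and at 12.4 and 13.9 CPM for F11r, which stood at 63.2 and 52.7 CPM in immune cells of LATS1/2 KO.

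The order of the lineages was tested across all genes with edgeR's quasi-likelihood test, with Benjamini-Hochberg adjustment and the WT mouse as a block. Between luminal ER- and hormone-sensing cells 8 of the 9 members were called, all higher in luminal ER- cells, where 57% of all 13186 genes were called and 28.3% were higher there. Cldn1 differed by 5.39 on the log2 scale (SE 0.32, adjusted p = 8.61e-08), Ocln by 1.28 (SE 0.11, adjusted p = 7.48e-07) and Cldn3 by 0.85 (SE 0.10, adjusted p = 1.42e-05). Cldn4 was not called, at 0.27 with a 95% interval of -0.24 to 0.79, but was called after thinning (0.34, adjusted p = 0.00378). The call of Cldn5 rests on 11 UMIs in luminal ER- and 1 in hormone-sensing cells. It was lost without the mouse block (adjusted p = 0.118), with clusters (0.222) and after thinning (0.134). That of Cldn7 was lost without the mouse block (0.0998). Against basal cells 8 members were called, again all higher in luminal ER- cells, beside 31.4% of all genes called and 18% called higher: Cldn7 by 4.74, Cldn3 by 4.60, Ocln by 4.54, Cldn4 by 3.91 and Marveld2 by 3.63 on the log2 scale. The corresponding differences of Tjp1 and F11r were 0.76 and 0.72. Cldn1 was at least 5.52-fold higher than the level that 3 UMIs over the WT basal sums would give.

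Against endothelial cells 8 members differed from luminal ER- cells beside 27.5% of all genes (15.6% higher in luminal ER- cells and 12% lower). On the log2 scale, luminal ER- minus endothelial, Cldn5 was at -11.58 (SE 0.24, adjusted p = 1.88e-11) and Tjp1 at -0.84 (SE 0.20, adjusted p = 0.00567), while F11r was not called (-0.23, 95% interval -0.61 to 0.14). The other 6 were higher in luminal ER- cells. The scaling factors of this fit, given further on, raised luminal ER- against endothelial cells. In plain CPM F11r was lower in luminal ER- cells of both mice (162 and 151.5 against 205.5 and 289). Hormone-sensing cells exceeded basal cells in 5 members beside 37.6% of all genes called and 20.2% called higher, namely Cldn3, Cldn4, Cldn7, Ocln and Marveld2. Tjp1 and F11r were not called between those lineages (0.38 and 0.35 on the log2 scale, adjusted p = 0.159 and 0.105). Hormone-sensing and endothelial cells differed in 8 members, 5 higher in hormone-sensing cells (17.3% of all genes) and 3 lower (14.6%), beside 31.9% of all genes. Between basal and endothelial cells only Cldn5, Tjp1 and F11r were called, beside 17% of all genes, each of the 3 higher in endothelial cells (9.39% of all genes). Cldn5 was there at least 369-fold above the floor of the WT basal sums, and Tjp1 and F11r were 3.03-fold and 1.94-fold higher. Leaving the marker gate for clusters of cells raised the number called in that last comparison to 6.

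**Figure D1:**
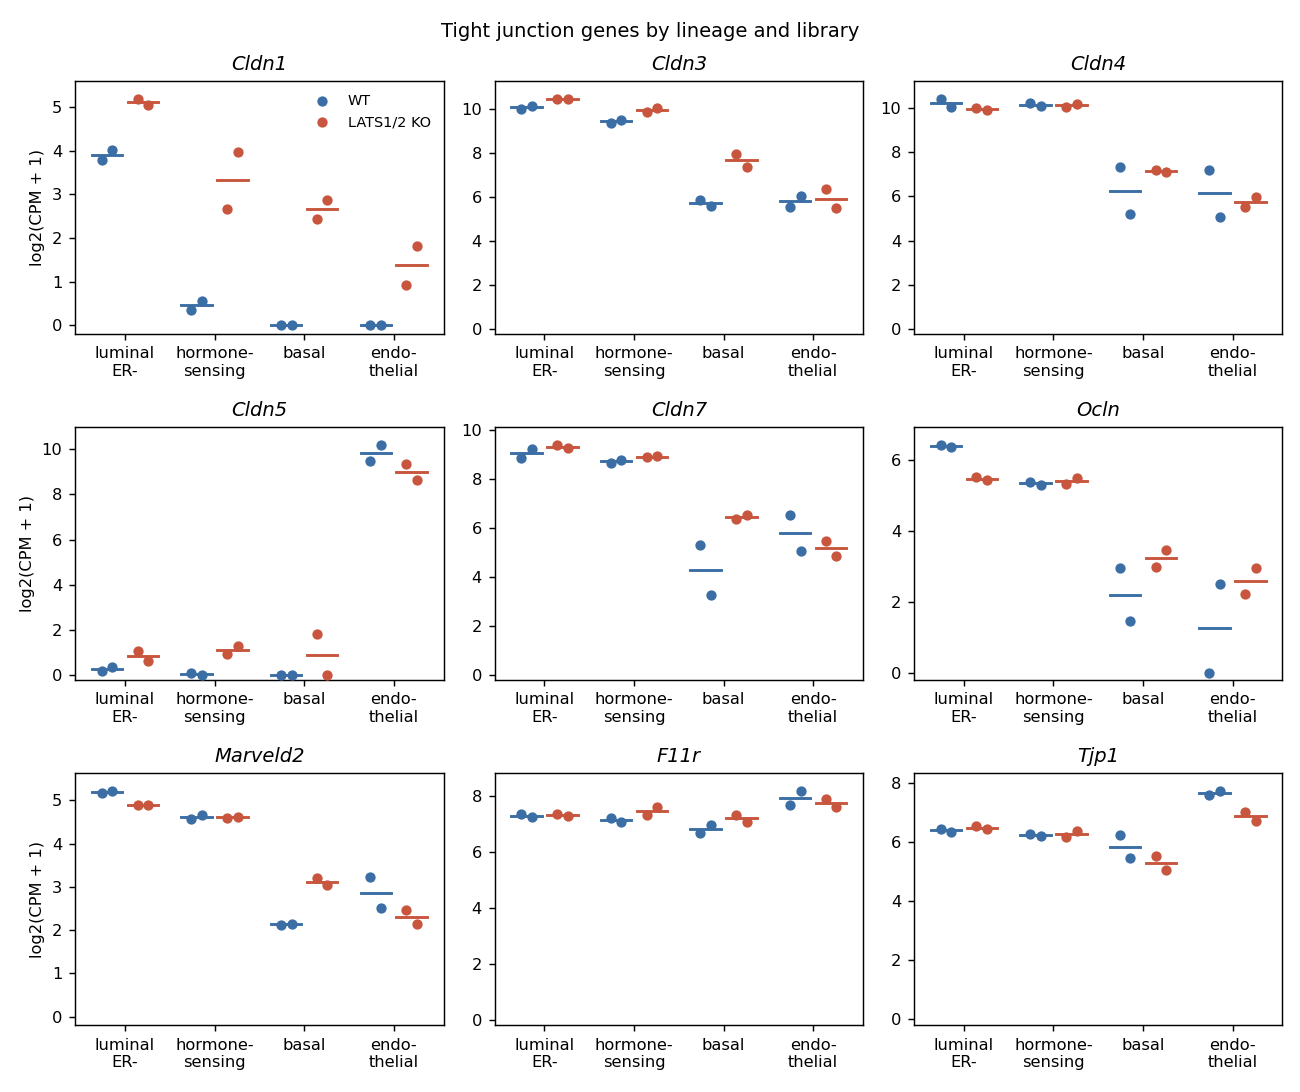
Level of each of the 9 genes as log2(CPM + 1) in each library, for luminal ER-, hormone-sensing, basal and endothelial sums of WT and LATS1/2 KO; points are libraries and bars the mean of the 2 log values. Cldn5 stands apart in endothelial cells, Cldn1 stands highest in luminal ER- cells and higher in both LATS1/2 KO libraries, and Ocln is lower there in LATS1/2 KO.

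In luminal ER- cells, the lineage with the most cells, Cldn1 rose while Ocln, Marveld2 and Cldn4 fell in LATS1/2 KO. Cldn1 stood at 12.9 and 15.2 CPM in WT and at 35.4 and 32.4 CPM in LATS1/2 KO (727 and 767 UMIs), which is 14.1 ± 1.64 against 33.9 ± 2.17 CPM (SD, n = 2 mice). Ocln stood at 84.8 and 81.8 CPM in WT and at 45.1 and 41.9 CPM in LATS1/2 KO, or 83.3 ± 2.07 against 43.5 ± 2.28 CPM (SD, n = 2). Marveld2 stood at 34.8 and 36.3 CPM against 28.6 and 28.8 CPM. In all 3 the WT and LATS1/2 KO libraries did not overlap, and the gap was larger than the spread between mice. Cldn3, Cldn4, Cldn5 and Cldn7 did not overlap either. No share over all genes was taken for any lack of overlap given in this account. With 2 mice against 2, an exact permutation test gives no p below 0.33. Cldn4 stood at 1326 and 1059 CPM in WT and at 1000 and 950 CPM in LATS1/2 KO, where the lower WT mouse lay close to the higher LATS1/2 KO mouse.

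On the CPM scale both LATS1/2 KO libraries also lay above both WT libraries for Cldn3 and Cldn7. Cldn3 stood at 1027 and 1124 CPM in WT and at 1385 and 1382 CPM in LATS1/2 KO, and Cldn7 at 471 and 604 against 669 and 615 CPM. For Cldn7, WT replicate 2 lay close to LATS1/2 KO replicate 2. Tjp1 stood at 86.4 and 79.8 against 91.3 and 85.5 CPM, and F11r at 162 and 151.5 against 162 and 156 CPM, so that both overlapped. Cldn5, the endothelial claudin, was read from 4 and 7 UMIs in WT and from 22 and 13 UMIs in LATS1/2 KO, at most 1.1 CPM in any library.

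A fold change of these sums depends on how they are scaled. The trimmed-mean (TMM) factors of the test lowered LATS1/2 KO against WT by 0.33 on the log2 scale in luminal ER- cells, and by 0.07 in hormone-sensing and 0.13 in basal cells. The factors raised LATS1/2 KO by 0.05 in endothelial cells. The WT differences between lineages above carry such factors too, at 0.856 and 0.860 in luminal ER- and 1.13 and 1.16 in endothelial sums. These raised luminal ER- against endothelial cells, and the WT differences were not fitted without factors. Fold changes below carry the factors of their own fits, while the CPM values do not. Over all genes called in luminal ER- cells, 51.9% were higher in LATS1/2 KO with the factors and 72.7% without them. In basal cells the shares were 51.3% and 62.1%.

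With the factors, 6 of the 9 members were called in luminal ER- cells, where 60% of all 13585 genes were called. Higher were 2 members (31.2% of all genes) and lower 4 (28.9%). Ocln fell by 1.27 on the log2 scale (SE 0.10, adjusted p = 5.29e-05), Marveld2 by 0.64 (SE 0.09, adjusted p = 0.000853), Cldn4 by 0.62 (SE 0.14, adjusted p = 0.0059) and F11r by 0.31 (SE 0.10, adjusted p = 0.0242). Cldn1 rose by 0.94 (SE 0.12, 95% interval 0.65 to 1.22, adjusted p = 0.000556) and Cldn5 by 1.55 (SE 0.57, adjusted p = 0.0478). Cldn3, Cldn7 and Tjp1 were not called, at 0.03, -0.08 and -0.25. The median over the members was -0.25, beside 0.01 over all genes tested.

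Without the factors, Ocln still fell by 0.94 (adjusted p = 0.000189) and Marveld2 by 0.31 (adjusted p = 0.02), and Cldn1 rose by 1.27 (adjusted p = 0.000155). Cldn4 was then not called (-0.29, adjusted p = 0.0861), Cldn3 was called higher (0.36, adjusted p = 0.0155), and F11r turned to 0.02 (adjusted p = 0.848). F11r was also lost without WT replicate 1, without WT replicate 2 or without LATS1/2 KO replicate 2. Cldn5 was lost without WT replicate 1, WT replicate 2 or LATS1/2 KO replicate 1, and in DESeq2 (adjusted p = 0.0961). Tjp1 was called lower without LATS1/2 KO replicate 1 (-0.33, adjusted p = 0.037) and in DESeq2.

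The classes themselves changed between conditions. The summed luminal ER- markers stood at 19653 and 23219 CPM in WT and at 14887 and 16057 CPM in LATS1/2 KO, with all 10 read in each library, and the 8 fibroblast markers stood at 17.6 and 41.5 CPM in WT and at 277 and 275 CPM in LATS1/2 KO. The 10 endothelial markers summed to 8.4 to 19.4 CPM in luminal ER- cells, with Kdr or Tek at 0 in a WT library each, beside the few Cldn5 UMIs. The part of these shifts in the changes of the 9 genes was not tested. In sums over cells, fewer cells that express a gene and less RNA per cell cannot be told apart. Shares of cells with a UMI are given further on.

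The promoters of Cldn1, which rose, and of Ocln, Marveld2 and Cldn4, the 3 members that fell most in luminal ER- cells, are shown as the 250 bases upstream of the start (RefSeq, GRCm38.p6, minus strand for all 4, read 5′ to 3′ toward the gene). Capitals mark matches, on either strand, to 4 short motifs: GGAATG of the TEAD factors, TGANTCA of AP-1, CACCTG bound by Snail and Zeb repressors, and AACNGGTT of Grainyhead-like factors. The windows are chr16:26371840-26372089 for Cldn1, chr13:100552719-100552968 for Ocln, chr13:100616972-100617221 for Marveld2 and chr5:134946935-134947184 for Cldn4.
Cldn1: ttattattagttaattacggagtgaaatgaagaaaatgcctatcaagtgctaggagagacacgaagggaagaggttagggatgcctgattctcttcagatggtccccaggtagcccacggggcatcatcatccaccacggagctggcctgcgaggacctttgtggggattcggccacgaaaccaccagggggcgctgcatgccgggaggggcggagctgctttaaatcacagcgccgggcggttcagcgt
Ocln: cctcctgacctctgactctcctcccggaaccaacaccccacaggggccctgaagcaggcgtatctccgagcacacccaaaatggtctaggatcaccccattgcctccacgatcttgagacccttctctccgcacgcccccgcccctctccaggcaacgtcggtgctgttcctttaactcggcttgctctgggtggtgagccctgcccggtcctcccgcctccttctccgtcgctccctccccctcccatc
Marveld2: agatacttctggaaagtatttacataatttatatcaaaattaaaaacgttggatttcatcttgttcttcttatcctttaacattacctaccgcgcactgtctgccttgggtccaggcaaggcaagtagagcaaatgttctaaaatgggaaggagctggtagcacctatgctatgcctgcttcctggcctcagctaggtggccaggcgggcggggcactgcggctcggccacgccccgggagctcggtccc
Cldn4: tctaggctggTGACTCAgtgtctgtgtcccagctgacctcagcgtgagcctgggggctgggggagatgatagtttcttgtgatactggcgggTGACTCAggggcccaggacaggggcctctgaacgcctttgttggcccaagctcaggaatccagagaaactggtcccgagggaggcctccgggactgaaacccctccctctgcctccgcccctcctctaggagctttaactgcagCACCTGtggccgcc
The Cldn4 window held 2 AP-1 matches and 1 CACCTG match, and the other 3 windows held none of the 4 motifs. Among all 32851 windows of the same length, 12.6% held GGAATG, 6.75% TGANTCA, 17.2% CACCTG and 1.79% AACNGGTT. Of the other members, Cldn5 held 1 AACNGGTT, F11r 1 TGANTCA and 1 CACCTG, and Cldn7 1 GGAATG at its first start and 2 CACCTG at its second. A second Ocln start, further into the gene, held 2 CACCTG. Cldn3 and Tjp1 held none. A match is a run of letters and does not show that a factor binds.

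In hormone-sensing cells the luminal fall of Ocln was not seen, and Cldn1 was the member that changed most under the marker gate. Cldn1 rose from 4 and 7 UMIs (0.28 and 0.47 CPM) in WT to 24 and 31 UMIs (5.4 and 14.7 CPM) in LATS1/2 KO, although the LATS1/2 KO libraries held fewer such cells. Cldn3 stood at 658 and 728 CPM in WT and at 944 and 1048 CPM in LATS1/2 KO. Neither gene overlapped between conditions. Cldn5, Cldn7 and F11r, none of them called, did not overlap either. Ocln stood at 40.9 and 38.5 CPM against 38.9 and 44.0 CPM, Marveld2 at 22.6 and 24.3 against 23.1 and 23.7 CPM, and Cldn4 at 1170 and 1085 against 1061 and 1155 CPM, all with overlap.

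Of the 8 members tested, 2 were called, both higher, where 30.7% of all 12248 genes were called and 16.3% were higher. Cldn1 rose by 4.52 on the log2 scale (SE 0.64, adjusted p = 0.00582) and Cldn3 by 0.45 (SE 0.12, adjusted p = 0.0397). The Cldn3 call was lost without each of the 4 libraries in turn (adjusted p up to 0.298), and the Cldn1 call was kept in each of these fits (adjusted p up to 0.0337). The rise of Cldn1 rests on few UMIs and on the gate: with hormone-sensing cells taken from clusters it was read from 1 and 2 UMIs in WT (0.079 and 0.15 CPM) and from 9 and 1 UMIs in LATS1/2 KO (2.0 and 0.65 CPM), too few to be tested. Cldn3 was called with clusters too (0.48, adjusted p = 0.0129). Ocln was at -0.02 with a 95% interval of -0.32 to 0.28, and the other 5 tested members lay between -0.10 (Cldn4) and 0.25 (F11r). Cldn5, with 1, 0, 4 and 3 UMIs, had too few to be tested. The hormone-sensing markers summed to 7280 and 5888 CPM in WT and to 5270 and 4173 CPM in LATS1/2 KO. The luminal ER- markers, which mark the lineage where Cldn1 is highest, summed to 837 and 785 CPM in WT and to 895 and 755 CPM in LATS1/2 KO hormone-sensing cells, with all 10 read throughout. The part of luminal ER- cells or of cells near the gate in the rise of Cldn1 was not tested.

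In basal cells the luminal claudins Cldn3 and Cldn7 were higher in LATS1/2 KO under the marker gate, but not when basal cells were taken from clusters. Cldn3 stood at 57.1 and 48.1 CPM in WT (34 and 28 UMIs) and at 251.5 and 167 CPM in LATS1/2 KO (400 and 368 UMIs). Cldn7 stood at 38.6 and 8.6 CPM in WT (23 and 5 UMIs) and at 82.4 and 92.0 CPM in LATS1/2 KO (131 and 203 UMIs). The groups did not overlap for either gene. Nor did they for Cldn1, F11r, Marveld2 and Ocln, none of them called. Cldn4 stood at 158 and 36.0 CPM against 146 and 134 CPM, and the 2 WT mice lay on either side of the LATS1/2 KO mice.

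Of the 5 members tested, 2 were called, both higher, beside 32.6% of all 8606 genes called and 16.7% called higher. Cldn3 rose by 1.85 on the log2 scale (SE 0.24, adjusted p = 0.000122) and Cldn7 by 1.74 (SE 0.35, adjusted p = 0.00245), the latter not called in DESeq2 (adjusted p = 0.181). Cldn4 was not called, at 0.38, but reached 1.88 without WT replicate 1 (adjusted p = 4.79e-05). Tjp1 was at -0.76 (adjusted p = 0.0607), passed without WT replicate 2 (-1.10, adjusted p = 0.017) or without LATS1/2 KO replicate 1 (-1.02, adjusted p = 0.00394), and F11r at 0.24 (adjusted p = 0.312). The others were too low to test: Ocln was read from 4, 1, 11 and 22 UMIs, Marveld2 from 2, 2, 13 and 16, Cldn5 from 0, 0, 4 and 0 and Cldn1 from 0, 0, 7 and 14 in WT replicates 1 and 2 and LATS1/2 KO replicates 1 and 2. The mean of Cldn1 in LATS1/2 KO was at least 2.11-fold above the 2.55 CPM that 3 UMIs over the WT sums would give.

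Basal cells taken from clusters instead of the gate numbered 207 and 166 in WT and 393 and 530 in LATS1/2 KO. There Cldn3 stood at 217.2 and 143 CPM in WT and at 207.8 and 133 CPM in LATS1/2 KO (-0.21 on the log2 scale, adjusted p = 0.514), and Cldn7 at -0.48 (adjusted p = 0.0784). Cldn4 fell in them by 1.26 (adjusted p = 0.00135) and Tjp1 by 0.98 (adjusted p = 0.00704). In all, 3 members were called there. Ocln, too low to test in the gate, stood there at 19.5 and 10.9 CPM in WT (17 and 8 UMIs). In LATS1/2 KO it stood at 4.5 and 3.9 CPM (10 and 12 UMIs). The direction of Cldn3, Cldn4 and Cldn7 in basal cells thus depended on which cells were called basal. Cells of the 2 conditions also lay in different clusters: 1 basal cluster of 378 cells was 1.32% LATS1/2 KO, and another of 918 cells was all LATS1/2 KO, with 60.6% of it inside the basal gate. In the gated cells the summed epithelial markers stood at 5336 and 4406 CPM in WT and at 9233 and 9475 CPM in LATS1/2 KO, the basal markers at 7798 and 9657 against 5656 and 6281 CPM, and the luminal ER- markers at 1978 and 2231 CPM against 2688 and 2263 CPM, all 10 read throughout. Cldn3 in immune cells, as background, stood at 19.5, 62.6, 66.8 and 39.6 CPM. The part of these marker shifts in the basal change was not tested.

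In endothelial cells Cldn5 and Tjp1 were lower in LATS1/2 KO by the mean, and neither passed the threshold. Cldn5 stood at 717 and 1161 CPM in WT (171 and 249 UMIs) and at 642 and 392.5 CPM in LATS1/2 KO (709 and 463 UMIs), or 939 ± 314 against 517 ± 176 CPM (SD, n = 2). Tjp1 stood at 189 and 209.9 CPM against 128 and 103 CPM. The groups did not overlap, but the WT replicates of Cldn5 differed from each other by more than the gap to the nearest LATS1/2 KO library. F11r stood at 205.5 and 289 CPM against 237 and 193 CPM, with overlap.

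None of the 6 members tested was called by edgeR, beside 8.56% of all 7112 genes, and DESeq2 called 0. At an unadjusted p under 0.05 there were 2, Cldn5 (-0.81 on the log2 scale, SE 0.27, adjusted p = 0.0782) and Tjp1 (-0.73, SE 0.25, adjusted p = 0.0784). Cldn5 passed without WT replicate 1 (-1.11, adjusted p = 0.000566) and without LATS1/2 KO replicate 1 (-1.15, adjusted p = 0.00672). F11r was at -0.14. Cldn3, Cldn4 and Cldn7 were at 0.22, -0.72 and -0.79. Their endothelial levels ranged from 44.1 to 80.6, from 32.6 to 147 and from 27.98 to 92.3 CPM, beside 19.5 to 66.8, 34.8 to 47.0 and 10.7 to 30.7 CPM in immune cells. Cldn4 and Cldn7 passed without WT replicate 2 only. Cldn1, Ocln and Marveld2, with at most 8 UMIs in a library, were not tested. Endothelial markers summed to 6221 and 6581 CPM in WT and to 6036 and 6130 CPM in LATS1/2 KO, all 10 read in each, while epithelial markers varied from 858 to 1669 CPM.

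**Figure D2:**
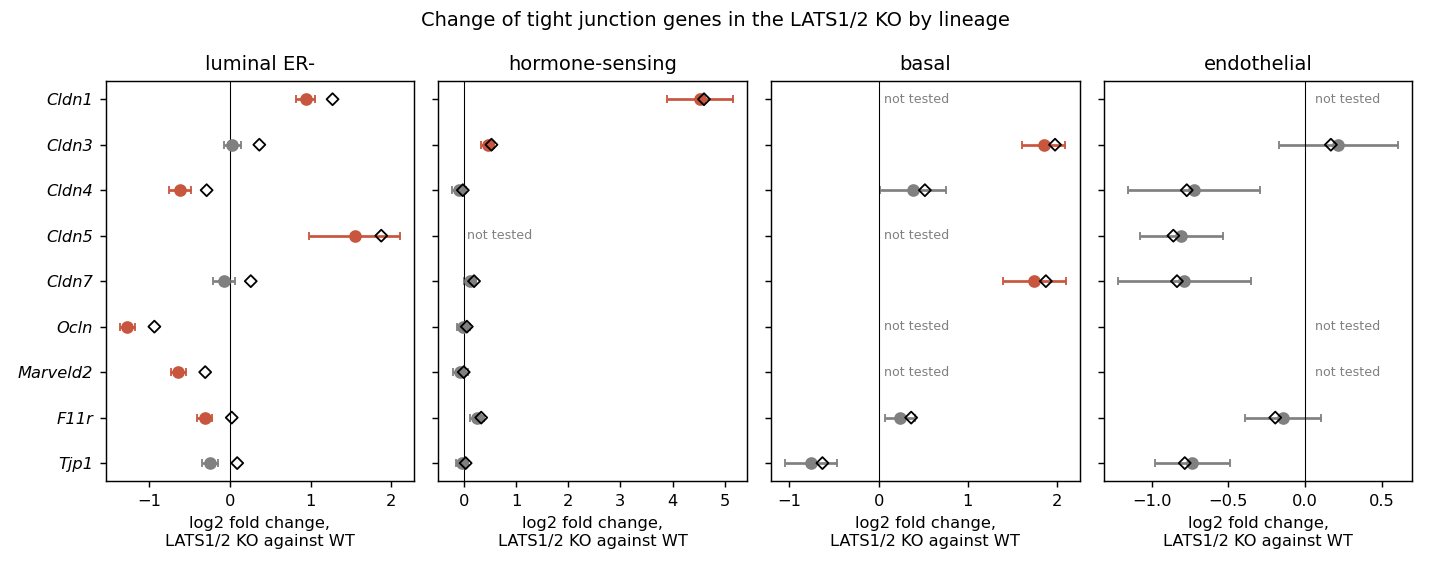
Change of each member in LATS1/2 KO against WT on the log2 scale, 1 panel per lineage, with bars of 1 standard error; the axes of the panels differ. Filled orange points passed an adjusted p of 0.05, grey ones did not, and open diamonds give the change from library totals without scaling factors; Ocln and Marveld2 lie below 0 in luminal ER- cells on both scales, Cldn1 above 0, and Cldn3 and Cldn7 lie above 0 in gated basal cells.

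Whether the change in LATS1/2 KO differed between lineages was tested as an interaction, with the mouse as a block. Hormone-sensing cells differed from luminal ER- cells in 6 members, all with the higher change in hormone-sensing cells, beside 21.4% of all 13950 genes called and 11.4% in that direction. The change of Ocln was 1.27 higher on the log2 scale in hormone-sensing cells (SE 0.15, adjusted p = 0.000759) and that of Cldn1 3.53 higher (SE 0.59, adjusted p = 0.00365), or 2.80 with classes from clusters (adjusted p = 0.0149), where it rests on the few hormone-sensing UMIs given above. Marveld2, F11r, Cldn4 and Cldn3 differed by 0.59, 0.58, 0.54 and 0.44, all in the same direction. With library totals in place of scaling factors only Cldn1 (3.25) and Ocln (0.98) remained called. In that comparison 53.4% of all calls were higher with the factors and 25.9% without them, so the calls of the other 4 genes rest on the scaling. Without the mouse block the calls of Cldn3 and Cldn4 were lost (adjusted p = 0.0885 and 0.0859). Marveld2 was also lost without each library in turn (adjusted p up to 0.141), Cldn3 without either WT library (0.11 and 0.114), Cldn4 without WT replicate 1 (0.116) and F11r without WT replicate 2 (0.0643).

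Gated basal cells differed from luminal ER- cells in 5 members beside 19.6% of all 13694 genes called and 11% called with the higher change in basal cells: Ocln by 2.25 (SE 0.59, adjusted p = 0.0038), Cldn7 by 1.89 (SE 0.29, adjusted p = 1.77e-06), Cldn3 by 1.87 (SE 0.19, adjusted p = 8.37e-11), Cldn4 by 1.13 and F11r by 0.62, each higher in basal cells. All calls there were 55.8% higher with the factors and 31.4% without. The Ocln value rests on 5 UMIs in WT basal cells and was lost without WT replicate 2 (1.69, adjusted p = 0.0614) or LATS1/2 KO replicate 2 (1.84, adjusted p = 0.088), and F11r was lost without LATS1/2 KO replicate 1 (0.56, adjusted p = 0.059) and with library totals (0.34, adjusted p = 0.155). The change of Tjp1 was called lower in basal cells with library totals (-0.72, adjusted p = 0.0382). Basal and hormone-sensing cells differed in 2 members beside 16% of all 11175 genes called and 7.96% called with the higher change in basal cells, Cldn7 by 1.66 (SE 0.37, adjusted p = 0.00499) and Cldn3 by 1.41 (SE 0.26, adjusted p = 0.00127). With clusters in place of the gate, the basal differences of Cldn3, Cldn4, Cldn7 and Ocln changed sign in both comparisons. Against hormone-sensing cells those of Cldn4 (-0.89, adjusted p = 0.00375), Cldn3 (-0.68, adjusted p = 0.0277) and Ocln (-1.83, adjusted p = 0.00479) were then called, whereas Cldn4 was called higher in basal cells without WT replicate 1 (1.97, adjusted p = 2.75e-07).

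Luminal cells of the LATS1/2 KO mice were then split by the reporter. Cells with at least 1 EYFP UMI were 17.4% and 22.8% of luminal cells (445 and 529 cells), and cells with none numbered 2118 and 1795. In WT luminal cells 0.306% and 0.458% had an EYFP UMI. EYFP-positive cells were deeper, with medians of 13481 and 15173 UMIs against 7314 and 7420, so a cell in which none was read is not known to lack recombination. Lats1 stood at 9.8 and 12.5 CPM in EYFP-positive and at 18.5 and 20.9 CPM in EYFP = 0 cells of the 2 mice. Recombined cells outside the gate are not covered: 37.7% and 45.5% of the epithelial cells without a lineage were EYFP-positive.

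Ocln and Marveld2 differed little between both kinds of cell within a mouse. Cldn1, not called between them, was higher in EYFP-positive cells of both mice. Ocln stood at 43.5 and 42.8 CPM in EYFP-positive cells and at 44.2 and 41.7 CPM in EYFP = 0 cells of LATS1/2 KO replicates 1 and 2, against 69.9 and 65.2 CPM in all WT luminal cells. Marveld2 stood at 27.4 and 28.5 CPM against 27.7 and 28.3 CPM, with 30.7 and 31.7 CPM in WT. Cldn1 stood at 34.5 and 32.3 CPM against 28.4 and 30.2 CPM, with 8.6 and 9.6 CPM in WT. In all 3 genes both kinds of LATS1/2 KO cell lay on the same side of both WT mice.

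The claudins Cldn7 and Cldn4 and the scaffold Tjp1 were the members called between the reporter classes. Cldn7 stood at 684 and 683 CPM in EYFP-positive and at 615 and 564 CPM in EYFP = 0 cells, higher in both mice. Tjp1 stood at 90.7 and 97.7 CPM against 86.4 and 78.5 CPM. Cldn4 stood at 1009 and 1096 CPM against 1012 and 898 CPM, so it was higher in 1 of the 2 mice only.

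Of the 8 members tested with the mouse as a block, these 3 were called, all higher, where 39.2% of all 12763 genes were called and 19.6% were higher. Cldn7 rose by 0.20 on the log2 scale (SE 0.05, adjusted p = 0.000538), Tjp1 by 0.18 (SE 0.07, adjusted p = 0.0386) and Cldn4 by 0.13 (SE 0.05, adjusted p = 0.026). The call of Tjp1 was kept with other size factors, with library totals and with cells without a lineage added, and that of Cldn4 under these and with no low-count filter. Both were lost under each other alternative that gives a test, luminal ER- cells alone among them (adjusted p = 0.169 and 0.143), and without LATS1/2 KO replicate 2, a value with no test, Cldn4 was at -0.0041. Ocln was at -0.0044 with a 95% interval of -0.18 to 0.18, which leaves out its change against WT. Cldn1 was at 0.17 with an interval of -0.03 to 0.38, and Cldn3, F11r and Marveld2 were at 0.04, 0.08 and -0.02.

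Set against the same WT luminal sums, which both comparisons share, each reporter class gave its own values. In EYFP-positive cells 5 members were called beside 59.1% of all 13777 genes (29.4% higher and 29.7% lower): Cldn1 at 1.66 (adjusted p = 0.00012) and Cldn3 at 0.32 (adjusted p = 0.028) were higher, and Ocln at -0.87 (adjusted p = 0.000509), Marveld2 at -0.38 (adjusted p = 0.0143) and Cldn4 at -0.38 (adjusted p = 0.0371) were lower. In EYFP = 0 cells 5 were called beside 47.6% of all 14072 genes (24.9% higher and 22.8% lower): Cldn1 at 1.48 (adjusted p = 0.00083), Cldn5 at 2.46 (adjusted p = 0.00879), Ocln at -0.86 (adjusted p = 0.002), Marveld2 at -0.36 (adjusted p = 0.0236) and Cldn4 at -0.50 (adjusted p = 0.0296). Cldn5 was read there from 34 UMIs in all. Cldn1 and Ocln stayed called in both comparisons without each library in turn. The EYFP-positive call of Cldn3 was lost without any of the 4 libraries (adjusted p up to 0.173), that of Cldn4 without WT replicate 1 or either LATS1/2 KO library (up to 0.203) and that of Marveld2 without WT replicate 2 (0.0542). In EYFP = 0 cells the Marveld2 call was lost without either WT library or LATS1/2 KO replicate 2 (up to 0.13), the Cldn4 call without WT replicate 1 or LATS1/2 KO replicate 2 (up to 0.161) and the Cldn5 call without WT replicate 1 or LATS1/2 KO replicate 1 (up to 0.0745). The scaling factors lowered LATS1/2 KO by 0.22 and 0.21 in these fits. Without them, 63.9% in place of 49.8% of all EYFP-positive calls and 68.5% in place of 52.2% of all EYFP = 0 calls were higher. The calls of Marveld2 and Cldn4 were then lost in both comparisons, with Marveld2 at -0.16 (adjusted p = 0.206) in EYFP-positive and -0.15 (adjusted p = 0.215) in EYFP = 0 cells and Cldn4 at -0.15 (adjusted p = 0.286) and -0.29 (adjusted p = 0.11). Cldn7 in EYFP-positive cells (0.47, adjusted p = 0.0122) and Cldn3 in EYFP = 0 cells (0.49, adjusted p = 0.0113) were then called higher. The luminal sums pool luminal ER- and hormone-sensing cells, and hormone-sensing cells, which had less Cldn1 and Ocln, made up a smaller part in LATS1/2 KO. In luminal ER- cells alone the changes against WT in EYFP-positive and EYFP = 0 cells were 0.99 and 0.90 for Cldn1, -1.33 and -1.26 for Ocln, -0.69 and -0.63 for Marveld2 and -0.57 and -0.67 for Cldn4, all still called. The EYFP-positive call of Cldn3 was lost there (0.045, adjusted p = 0.74), and F11r was called lower in both classes (-0.33, adjusted p = 0.0192, and -0.32, adjusted p = 0.032).

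**Figure D3:**
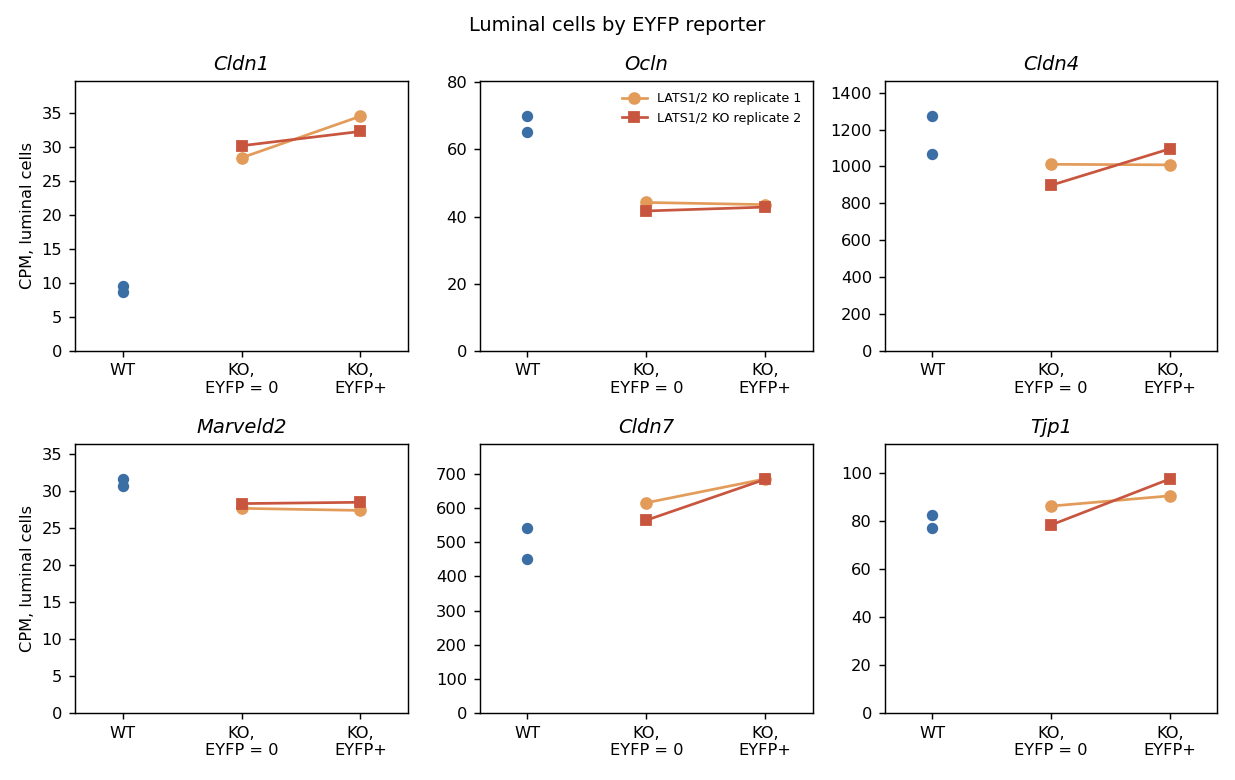
CPM of Cldn1, Ocln, Cldn4, Marveld2, Cldn7 and Tjp1 in luminal cells of WT mice and in EYFP = 0 and EYFP-positive luminal cells of LATS1/2 KO mice; each point is a library and a line joins the classes of 1 mouse. Ocln lies between 41.7 and 44.2 CPM in both LATS1/2 KO classes and at 65.2 and 69.9 CPM in WT, and Cldn7 is higher in EYFP-positive cells of both mice.

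The number of cells in which a member was read followed the sums. After each cell was thinned to 2000 UMIs, with shallower cells left out, Cldn1 was read in 2.65% and 2.48% of WT and in 5.90% and 5.23% of LATS1/2 KO luminal ER- cells. Before thinning the shares were 9.38%, 12.03%, 21.2% and 21.3%. In immune cells, which should lack it, 0.67%, 0%, 0.49% and 0.61% had a UMI after thinning, and the 0 of 74 cells allows up to 4.86% by the exact binomial interval. Ocln was read after thinning in 16.4% and 15.6% of WT and in 8.59% and 7.91% of LATS1/2 KO luminal ER- cells (45.9%, 48.3%, 31.7% and 33.6% before), against at most 2.01% of immune cells. In hormone-sensing cells its share was 7.37% and 6.89% in WT and 7.56% and 7.87% in LATS1/2 KO.

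For both genes the 95% intervals of each WT luminal ER- library lay clear of those of each LATS1/2 KO library, which covers counting error only. Cldn3 was read in 6.90% and 3.05% of WT and in 25.3% and 12.8% of LATS1/2 KO gated basal cells, and in immune cells of the same libraries in 4.03%, 5.41%, 12.2% and 6.75%. For Cldn7 the basal shares were 4.14%, 2.29%, 7.76% and 9.29% and the immune shares 2.01%, 5.41%, 7.80% and 5.21%, and in each library the 95% intervals of both classes overlapped. In the sums, basal Cldn7 lay above immune Cldn7 in LATS1/2 KO, at 82.4 and 92.0 CPM against 30.7 and 26.9 CPM, while in WT its 38.6 and 8.6 CPM lay on either side of the immune 10.7 and 27.8 CPM. For Cldn3 the intervals of the shares were clear of each other in LATS1/2 KO replicate 1 only. Cldn5 was read in 40% and 64.5% of WT endothelial cells (35 and 31 cells) and in 35.4% and 30.6% of LATS1/2 KO endothelial cells, against at most 0.41% of luminal ER- cells. With Cldn5 left out, the number of these genes read in a thinned luminal ER- cell averaged 2.95 and 2.98 in WT and 2.97 and 2.89 in LATS1/2 KO. With 2 mice against 2, the smallest p an exact permutation test can give is 0.33, and none was used for shares.

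**Figure D4:**
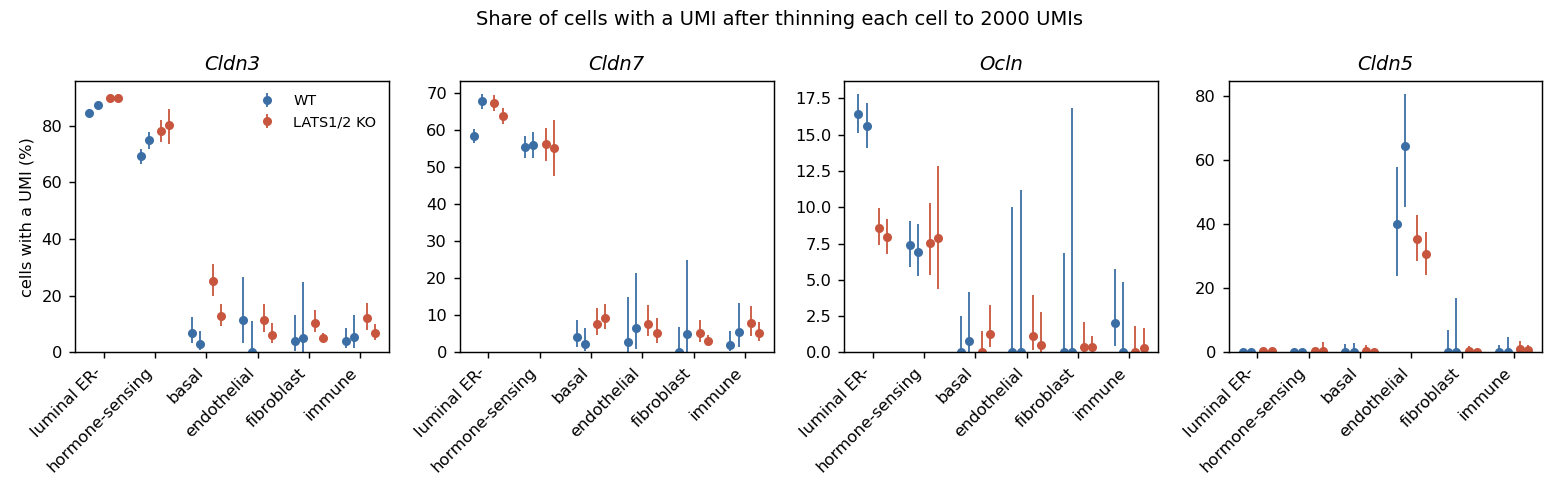
Percent of cells with at least 1 UMI of Cldn3, Cldn7, Ocln and Cldn5 after thinning to 2000 UMIs, by cell class and library, with 95% exact binomial intervals that cover counting error only. Fibroblast and immune cells show the background of the epithelial genes; Ocln stands at 16.4% and 15.6% in WT and at 8.59% and 7.91% in LATS1/2 KO luminal ER- cells, and Cldn5 stands apart in endothelial cells.

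The surrounding junction genes moved in both directions in luminal ER- cells. Of 56 further genes of tight, adherens and desmosomal junctions found in the files, 52 could be tested there, and 21 rose, 21 fell and 10 were not called, with a median of -0.19 beside 0.01 over all genes. Of all genes tested there, 31.2% rose and 28.9% fell. Without scaling factors 25 rose and 14 fell. Desmosome genes, whose proteins anchor keratin between cells, rose in 7 and fell in 1 of 9 tested. Adherens junction genes rose in 2 and fell in 6 of 11, and tight junction scaffolds rose in 4 and fell in 5 of 10. Of 8 other claudins 3 rose and 4 fell.

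The genes of that list with the most extreme changes were again claudins, scaffolds and desmosomal cadherins. Cldn6, a claudin of embryonic epithelium, rose by 3.45 on the log2 scale in luminal ER- cells (SE 0.24, adjusted p = 3.7e-05), and Cldn9 by 4.60, with 1 and 0 UMIs in WT and 19 and 13 in LATS1/2 KO. The desmosomal cadherin gene Dsg3 had no UMI in WT luminal ER- cells and 60 and 48 in LATS1/2 KO, at least 42.6-fold over the floor of 3 UMIs. Tjp3, the gene of the scaffold ZO-3, fell by 2.43 (SE 0.09, adjusted p = 6.25e-06), from 95.6 and 97.1 CPM to 22.4 and 22.7 CPM, and its 2 groups lay far apart. The pore-forming claudins Cldn10 and Cldn2 fell by 2.29 and 1.72.

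Hormone-sensing cells had 17 of 46 tested list genes higher and 3 lower (median 0.43), beside 30.7% of all genes called and 16.3% called higher. The largest rises were those of the desmosomal plaque gene Pkp1 (3.67), of Pvrl3, which encodes nectin 3 (3.23), and of Cldn6 (2.26), and the falls those of Cldn8 (-1.78), Magi1 (-1.15) and Pvrl1 (-0.60). In gated basal cells 14 of 35 were higher and 4 lower (median 0.41), beside 32.6% of all genes called and 16.7% called higher. The gene of E-cadherin, Cdh1, rose there by 2.18 and the polarity gene Crb3 by 1.82. Dsg3 was at least 5.14-fold above its WT basal floor, and Clmp, Cldn10 and Jam2 fell by 3.54, 3.14 and 1.52. In endothelial cells 1 of 23 was higher, Cldn15 (2.35), and 1 lower, Cgnl1 (-2.55), beside 8.56% of all genes called. Between reporter classes 20 of 50 were higher and 11 lower in EYFP-positive cells, beside 39.2% of all genes called and 19.6% called higher, with Cldn9 (1.90), Cldn6 (1.47) and Dsc2 (0.89) rising most and Cldn10 (-1.73), Cldn8 (-0.87) and Igsf5 (-0.64) falling most.

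Over the 16 sums of 4 lineages in 4 libraries, the genes whose log2(CPM + 1) ran most like each member were picked among 14042 genes by Pearson's r. These sums share mice, depth and lineage, so r is a description. Cldn5 ran with Myct1 (0.996), Mecom (0.996) and Bcl6b (0.995). The 3 widespread epithelial claudins ran mostly with other epithelial genes: Cldn3 with Igsf5 (0.980), Krt18 (0.971) and Crb3 (0.969), Cldn4 with Erbb3 (0.969) and Pkp2 (0.964), and Cldn7 with Marveld2 (0.969), Cldn4 (0.959) and Krt18 (0.948). Marveld2 in turn ran with Cldn7 (0.969), Cldn3 (0.958) and Igsf5 (0.955).

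The members that changed most in luminal ER- cells had companions outside this group. Cldn1 ran with Gabrp (0.945), Krt80 (0.930) and Sbsn (0.918), and Ocln with Mta3 (0.955) and Gnl2 (0.947). Tjp1 ran with Enpp4 (0.925), Kank1 (0.924) and Trim30a (0.913), and F11r with Mgat1 (0.912), Rab11a (0.908) and Klf2 (0.903). Neither Cldn3 and Cldn4 nor Ocln and Marveld2, the pairs of neighbours on a chromosome, were among each other's 3 most alike genes. The r of these pairs was still high, at 0.927 for Cldn3 and Cldn4 and 0.857 for Ocln and Marveld2.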

How the data were processed

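Single-cell RNA-seq libraries (10x Genomics 3′ chemistry with UMIs) of 4 mice were deposited by the authors as matrices of UMI counts per gene and cell barcode, not normalised. The matrix headers name Cell Ranger 6.1.2, while the labels name version 3.1.0 and the mm10 genome. No columns of other samples were present. A barcode was kept above 500 genes if its mitochondrial share of UMIs was below 20%, and doublets were neither called nor removed, here or in the study's methods. Each cell was assigned by its best marker score, with a margin of 0.1 to the next, first among epithelial, endothelial, fibroblast, perivascular and immune compartments and then among luminal ER-, hormone-sensing and basal lineages. Intervals on shares of cells are exact binomial ones and cover counting error only.

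Counts were summed per library and class and tested in edgeR 4.0.16 (R 4.3.3; filterByExpr, TMM, glmQLFit, glmQLFTest) with Benjamini-Hochberg adjustment over all genes tested and a threshold of 0.05; 95% intervals use the fit's t quantile. The procedure was tested on simulated counts. The mouse was a block where sums of 1 mouse were compared. Levels are CPM of plain library totals. The members, marker lists and list of other junction genes were chosen with earlier results of these data known. All 9 members are named everywhere; of the other junction genes, the 3 most extreme called changes in each direction per lineage; and the 3 genes of highest r for each member, of which 1 each for Cldn4 and Ocln is not reported here. Older symbols were matched in the files (Pvrl1 to Pvrl4 for the nectins, for example), and 56 genes of the list were found. Replicates were separate mice. Same-numbered WT and LATS1/2 KO libraries were not paired by the labels, and their deviations correlated at -0.022 to 0.032. Alternatives were DESeq2 1.42.0, other size factors, plain library totals, no low-count filter, each library left out, a wider gate margin of 0.2, a mitochondrial limit of 10%, classes from clusters (scanpy 1.11.5, leidenalg 0.10.2, clustered without junction genes) and thinning to 2000 UMIs. Places came from GENCODE vM21 and promoters from RefSeq, GRCm38.p6.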

Additional observations from a re-analysis of the deposited data

Results flagged for a closer look

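Whether the change in LATS1/2 KO differed between lineages was tested as the difference itself. Between hormone-sensing and luminal ER- cells 6 members were called, beside 21.4% of all genes tested. Between basal and luminal ER- cells 5 were called, beside 19.6%. Between basal and hormone-sensing cells 2 were called, beside 16%. Values are differences of log2 changes from the edgeR interaction fit with Benjamini-Hochberg adjustment. Between hormone-sensing and luminal ER- cells, the change was higher in hormone-sensing cells for Cldn1 by 3.53 (adjusted p = 0.00365), for Ocln by 1.27 (adjusted p = 0.000759), for Marveld2 by 0.59 (adjusted p = 0.0395), for F11r by 0.58 (adjusted p = 0.0168), for Cldn4 by 0.54 (adjusted p = 0.0187) and for Cldn3 by 0.44 (adjusted p = 0.0285). Of these, only those of Cldn1 and Ocln stayed called without scaling factors. Those of Cldn4 and Cldn3 were also lost without the mouse block. The call of Marveld2 was lost without any 1 library and that of Cldn3 without either WT library. The call of Cldn4 was lost without WT replicate 1 and that of F11r without WT replicate 2. With classes from clusters that of Cldn1 was 2.80 (adjusted p = 0.0149), from hormone-sensing sums of 1, 2, 9 and 1 UMIs.

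Between gated basal and luminal ER- cells, the change was higher in basal cells for Ocln by 2.25 (adjusted p = 0.0038), for Cldn7 by 1.89 (adjusted p = 1.77e-06), for Cldn3 by 1.87 (adjusted p = 8.37e-11), for Cldn4 by 1.13 (adjusted p = 6.79e-05) and for F11r by 0.62 (adjusted p = 0.00488). Without scaling factors that of F11r was lost (0.34, adjusted p = 0.155), so F11r was then called in none of these differences. It was also lost without LATS1/2 KO replicate 1. The Ocln call, from 5 UMIs in WT basal cells, was lost without WT replicate 2 or LATS1/2 KO replicate 2. Between gated basal and hormone-sensing cells the change was higher in basal cells for Cldn7 by 1.66 (adjusted p = 0.00499) and for Cldn3 by 1.41 (adjusted p = 0.00127). The basal values of Cldn3, Cldn4, Cldn7 and Ocln changed sign when cells were classed by clusters.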

How the results depend on the processing

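Of the changes and differences of single members under an alternative, 870 values kept their side of the threshold, 81 lost and 26 gained a call. A further 14 changed sign and were called in the main fit, the alternative or both. A change of sign with no call in either is counted among the 870. These counts include the reporter values without 1 mouse, which have no test and of which 3 moved beyond the spread between mice. Alternatives in which a member was too low to be tested are left out, so calls lost that way are not counted. Among these are the alternatives of clusters and thinning for Cldn1 in hormone-sensing cells, called in the main fit. In luminal ER- cells Cldn1, Ocln and Marveld2 kept direction and call under all 13 alternatives, Cldn1 between 0.78 and 1.27, Ocln between -1.37 and -0.94 and Marveld2 between -0.70 and -0.31. F11r turned to 0.021 with library totals. In basal cells classed by clusters Cldn3, Cldn4 and Cldn7 turned to -0.21, -1.26 and -0.48. The basal minus luminal ER- differences of Cldn3, Cldn4, Cldn7 and Ocln then turned to -0.0500, -0.41, -0.26 and -0.49. The basal minus hormone-sensing ones turned to -0.68, -0.89, -0.50 and -1.83. With clusters the WT difference of Cldn1 between hormone-sensing and basal cells turned to -3.88. That value rests on 1 and 2 UMIs in the hormone-sensing and 2 and 1 UMIs in the basal sums. Cldn4 between reporter classes was at 0.29 without LATS1/2 KO replicate 1 and turned to -0.0041 without replicate 2. The cause was not tested in any of these.

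Members called in hormone-sensing cells numbered 1 without any 1 library, 1 with clusters and 0 after thinning, in place of 2. In basal cells DESeq2 called 1 and no low-count filter gave 4, in place of 2. Clusters gave 3 there, with neither Cldn3 nor Cldn7 among them. In endothelial cells leaving out 1 library gave 0 to 2, in place of 0. Between reporter classes, in place of 3, 1 was called at 2 or more EYFP UMIs, in luminal ER- cells alone, after thinning, in DESeq2 and with clusters. The hormone-sensing minus luminal ER- count of 6 fell to 2 with library totals and to between 3 and 5 without 1 library, the basal minus luminal ER- count of 5 to 3 with clusters, and the WT basal against endothelial count of 3 rose to 6 with clusters. Against WT, without 1 library, EYFP-positive cells gave 3 and EYFP = 0 cells 2 to 4, in place of 5 each.

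With the replicate number as a block, which the labels do not call a pairing, luminal ER- calls numbered 5 in place of 6 (Cldn5 lost), basal calls 3 in place of 2 (Tjp1 gained), and EYFP = 0 against WT 4 in place of 5 (Marveld2 lost), with no other change. Without the replicate block between reporter classes of the same mouse, no member was called, and 563 in place of 5003 genes were.

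Over all genes, thinning to 2000 UMIs lowered the calls most widely, from 8155 to 5115 in luminal ER-, from 3758 to 1496 in hormone-sensing, from 2805 to 1400 in basal and from 609 to 258 in endothelial cells, and from 5003 to 2057 between reporter classes, where DESeq2 called 2213. In the WT contrasts of luminal ER- with endothelial, hormone-sensing with basal, hormone-sensing with endothelial and basal with endothelial cells it gave 2213, 3284, 2329 and 1360 in place of 3632, 4956, 4210 and 2240, and against WT 4615 and 4280 in place of 8140 (EYFP-positive) and 6705 (EYFP = 0). Leaving out 1 library gave as few as 1725, 1823 and 380 calls in hormone-sensing, basal and endothelial cells, 3977 in EYFP = 0 against WT, and 1987 and 1188 in place of 2983 and 1787 in the hormone-sensing minus luminal ER- and basal minus hormone-sensing differences. With 2 mice a group, 35 and 43 WT endothelial cells and under 5 UMIs of some members, small changes outside luminal cells could not be seen. Leaving out a LATS1/2 KO mouse between reporter classes gives a value with no test.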
